A study of Homo sapiens with 18 samples.

Results

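The 36 genes described here encode aminoacyl-tRNA synthetases, 20 of the cytosol and 16 of the mitochondrion. They were taken by name from a table of 58870 genes, and all 36 were found. All 36 also had enough counts to be tested, among 15787 genes in all. The list is not a complete census of human synthetase genes. RNA was sequenced from NCI-H295R, an established line derived from a human adrenocortical carcinoma, in 6 groups of 3 biological replicates. The groups were untreated cells and cells given STA9090 (ganetespib, an HSP90 inhibitor), PIK75 (a PI3K inhibitor), BGT226 (an inhibitor of PI3K and mTOR), STA9090+PIK75 or STA9090+BGT226. Treatment lasted 48 h at a stated 20 nM. The labels do not say how that dose was divided in a combination or whether untreated cells received a vehicle. Every group was the same line, so the results describe 1 tumour's cells in culture.

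Aminoacyl-tRNA synthetases join each amino acid to its tRNA and so supply the ribosome with its substrates. Cytosolic and mitochondrial translation use separate enzymes for most amino acids, all encoded in the nucleus, while the products of GARS and KARS serve both compartments and EPRS charges both glutamyl- and prolyl-tRNA. Several cytosolic enzymes, among them those of DARS, EPRS, IARS, KARS, LARS, MARS, QARS and RARS, sit in a multi-synthetase complex held by the scaffold proteins AIMP1, AIMP2 and EEF1E1. Many cytosolic synthetase genes are known targets of ATF4, a transcription factor whose translation rises when amino acids are scarce and which mTORC1 also promotes.

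ATF4 with its partners binds composite elements with the core TGATGNAA, where N is any base. This core was searched on both strands in RefSeq promoters (GRCh38.p14) from 250 bases before to 50 bases after each gene's start, with no other motif searched. It was present in 5 of 16 cytosolic promoters (31.2%), 1 of 14 mitochondrial promoters (7.14%) and 1270 of all 35116 RefSeq promoters searched (3.62%). That last set was not limited to the 15787 genes tested here, so it is not a background of expressed genes. The other 6 members, DARS, LARS, VARS, YARS, AARS2 and VARS2, were not matched in the promoter table. The 6 matches are shown because the 5 cytosolic genes among them all fell with BGT226. Each line gives the gene's own strand, 5′ to 3′, with the core or its reverse complement in capitals.
AARS: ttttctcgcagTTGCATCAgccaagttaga
GARS: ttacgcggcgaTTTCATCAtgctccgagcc
IARS: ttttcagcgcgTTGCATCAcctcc
MARS: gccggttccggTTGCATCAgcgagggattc
NARS: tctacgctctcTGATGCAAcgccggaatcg
YARS2: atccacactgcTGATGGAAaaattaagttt
The windows lie at chr16:70289675-70289704 (minus strand, AARS), chr7:30594834-30594863 (plus, GARS), chr9:92293698-92293721 (minus, IARS), chr12:57488053-57488082 (plus, MARS), chr18:57621804-57621833 (minus, NARS) and chr12:32756076-32756105 (minus, YARS2). In GENCODE 29 those of GARS, IARS, MARS and NARS touch an exon of their own gene, that of AARS touches an exon of DDX19B on the opposite strand, and that of YARS2 touches no exon. A match is only a run of letters, and binding was not measured here.

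Library totals ran from 10.24 to 21.13 M expected counts, and the 36 members together took 0.185% to 0.299% of a library. Counts of abundant RNA polymerase III transcripts took 28.6% to 40.3%, on average 32.3% ± 4.71 in untreated cells and 38% ± 2.21 with STA9090+PIK75 (SD, n = 3). The summed level of 8 adrenocortical marker genes was 2100 to 2520 CPM (counts scaled to each library's effective size) in untreated libraries, 2040 to 2640 with STA9090, 1290 to 1490 with PIK75, 2020 to 2140 with BGT226, 1000 to 1050 with STA9090+PIK75 and 2400 to 2610 with STA9090+BGT226. The adrenocortical sum hides opposite changes. By edgeR (adjusted p under 0.05), 3 of the 8 were higher and 3 lower with BGT226 than in untreated cells. With STA9090+BGT226 it was also 3 and 3. Of all genes 12.8% and 15.7%, and then 19.4% and 20.4%, were higher and lower. CYP21A2 was at 657 ± 90 CPM in untreated cells, 913 ± 30 with BGT226 and 1210 ± 73.2 with STA9090+BGT226. CYP17A1 was at 263 ± 20.3, 104 ± 1.87 and 149 ± 9.27 CPM. Of 4 fibroblast, 3 endothelial and 4 leukocyte markers, 1, 0 and 1 had enough counts to be tested. The summed endothelial markers reached at most 0.159 CPM, and CDH5 was at 0 in every library. The summed fibroblast markers were 8.03 to 11 CPM in untreated libraries and 0.714 to 1.26 with STA9090+PIK75. The summed leukocyte markers were 0.677 to 1.21 CPM in untreated libraries and 1.1 to 1.41 with STA9090+PIK75. The part of the RNA polymerase III share and of these markers in the results below was not tested. Leaving out the 50 most counted genes, whichever they were, ended 2 of 134 significant member differences. That fit is not a test of either.

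**Figure D1:**
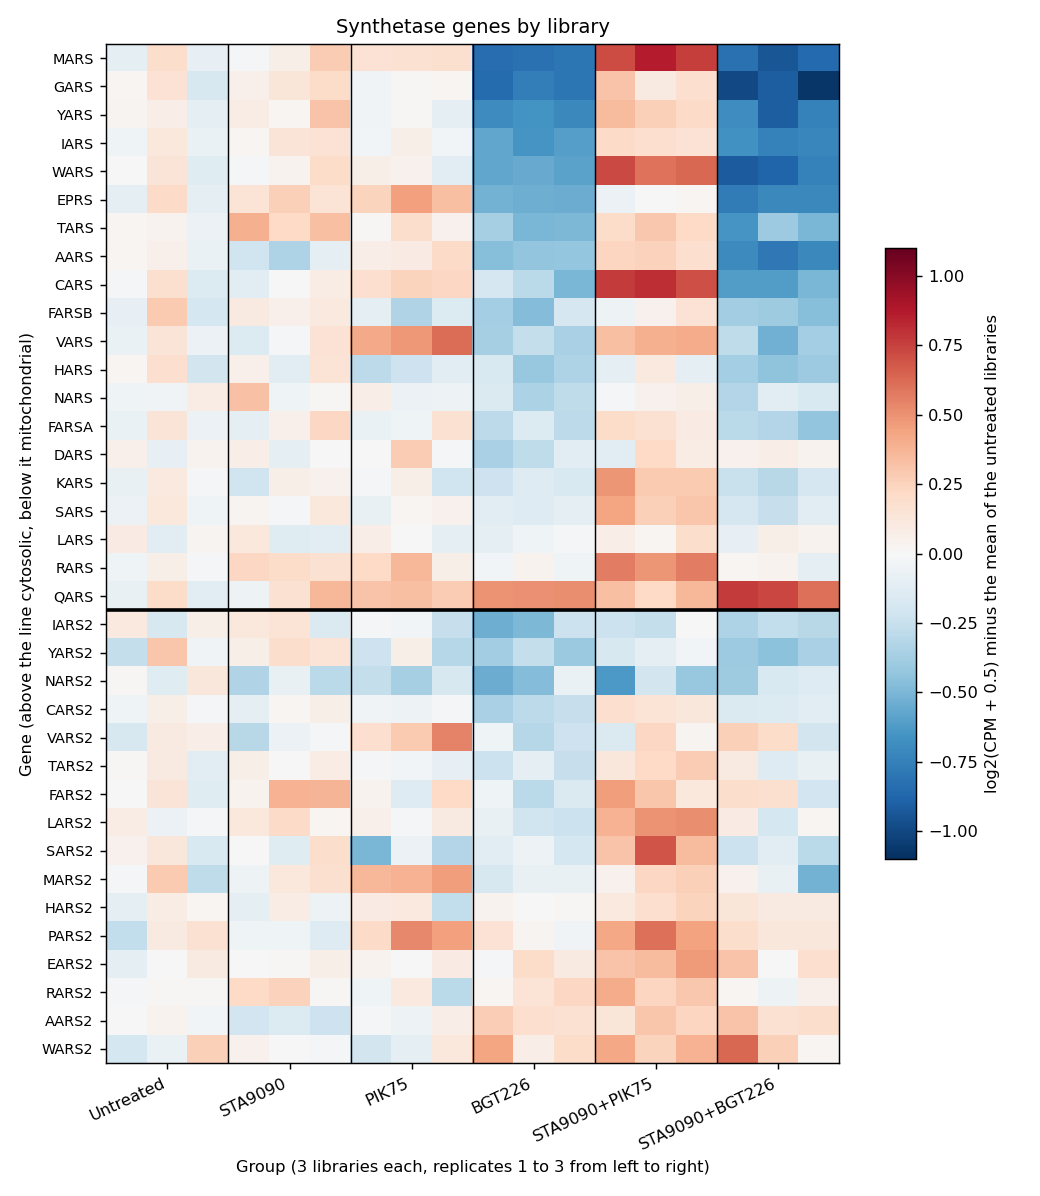
Heat map of the 36 synthetase genes (rows, cytosolic above the black line) in 18 libraries (columns, 3 per group). Colour is log2(CPM + 0.5) minus the gene's mean in the untreated libraries, and most cytosolic rows are blue in the BGT226 and STA9090+BGT226 columns while QARS is red.

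Per kilobase of exon, cytosolic members were the more abundant class in untreated cells, with a median of 15.8 CPM per kb (range 1.46 to 108) against 4.74 (1.63 to 12.7) for mitochondrial members. EPRS stood highest at 108 ± 13.8 CPM per kb, followed by IARS at 37.8 ± 2.71 (SD, n = 3). AARS (30.8 ± 1.48) and FARSA (30.7 ± 2.62) came next and did not differ beyond their spread. CARS, the cytosolic cysteinyl enzyme, was the lowest member at 1.46 ± 0.176 CPM per kb, beside WARS2 at 1.63 ± 0.293. IARS2 had the highest level of the mitochondrial class, 12.7 ± 1.3 CPM per kb, close to TARS at 14.8 ± 0.572 and NARS at 10.9 ± 0.558. Lengths are union exon lengths, so a gene with many rarely used exons is placed low by this scale.

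In the cytosolic class BGT226 lowered the RNA of most members, and the mitochondrial class moved less. The mean log2(CPM + 0.5) over the 20 cytosolic genes was 6.1, 6.24 and 6.05 in the untreated libraries and 5.79, 5.78 and 5.79 with BGT226. These libraries did not overlap, and the mean dropped from 6.13 ± 0.0963 to 5.79 ± 0.00451 (SD, n = 3). Over the 16 mitochondrial genes it was 4.17 ± 0.058 in untreated cells and 4.07 ± 0.0158 with BGT226. The gap between the class means was 1.99, 2.01 and 1.88 in untreated libraries and 1.72, 1.74 and 1.71 with BGT226, again without overlap. In bulk RNA a lower level per cell and a smaller share of cells that express a gene cannot be told apart.

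**Figure D2:**
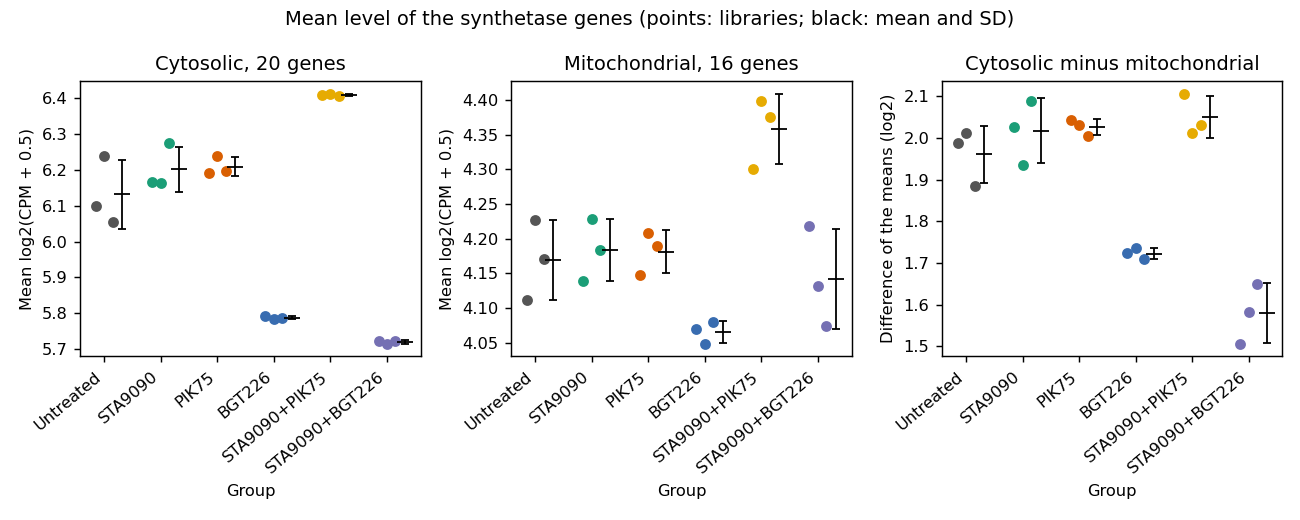
Mean log2(CPM + 0.5) per library of the 20 cytosolic genes, of the 16 mitochondrial genes, and the difference between these means, by group (coloured points are libraries, black bars mean and SD). The gap is 1.96 ± 0.0682 in untreated cells, 1.72 ± 0.0135 with BGT226 and 1.58 ± 0.0721 with STA9090+BGT226.

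Gene by gene, 14 of 20 cytosolic members were lower and 1 was higher with BGT226 than in untreated cells, at an adjusted p under 0.05 in edgeR's quasi-likelihood test (Benjamini-Hochberg over 15787 genes). Of all genes tested, 28.6% were called, 15.7% lower and 12.8% higher. The cytosolic median was a log2 fold change of -0.35, against 0.01 for all genes. In the mitochondrial class 3 of 16 were lower and 1 higher, so that its share of lower members (18.8%) was near the background. Its median was -0.16, with 10 negative and 6 positive changes. Mitochondrial members had fewer counts, with a sum of 367 CPM in untreated cells against 2086 for cytosolic members. The classes' counts of calls are therefore not on an equal footing, here or below. NARS2, at -0.34, was not called, while FARSA, at -0.25, was. Without untreated replicate 2 or BGT226 replicate 1 the mitochondrial count was 2. Without untreated replicate 2, which had the highest class means of its group, the cytosolic counts were 9 lower and 1 higher and the median was -0.28.

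GARS, which charges glycine in cytosol and mitochondria and lies at chr7:30594681-30634033, was at 70.7, 77.9 and 61.7 CPM in untreated cells and 38.6, 41 and 39.9 with BGT226. MARS, the methionyl enzyme at chr12:57475445-57517569, was at 127, 156 and 128 CPM and then at 76, 76.8 and 78.4. For each gene every treated library lay well below every untreated one. The log2 fold changes were -0.82 ± 0.081 for GARS (SE, edgeR adjusted p = 4.07e-07) and -0.83 ± 0.0873 for MARS (7.86e-07), close to a fold of 0.57 and 0.56. MARS shares 355 exon bases with DDIT3 and 519 with ARHGAP9 on the opposite strand (5.05% and 7.38% of its exon bases). No label says whether counting used strand, so its value is uncertain to that extent. DDIT3 itself was higher with BGT226 (0.45, edgeR adjusted p = 0.0109).

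YARS, for tyrosine, was at 74, 76.6 and 67.7 CPM in untreated cells and 44.9, 45.9 and 44.3 with BGT226. IARS, for isoleucine, was at 271, 303 and 266 CPM and then at 188, 178 and 183. Neither gene's groups overlapped. The edgeR log2 fold changes were -0.69 ± 0.0803 (edgeR adjusted p = 2.62e-06) and -0.61 ± 0.0737 (4.24e-06). WARS, for tryptophan, fell by 0.58 (2.13e-05), EPRS by 0.55 (0.000162), TARS, for threonine, by 0.46 (0.000137) and AARS, for alanine, by 0.45 (8.75e-05). These 8 kept their calls whichever library of the compared groups was left out.

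The other 6 lower cytosolic members changed by less and depended on single libraries. CARS fell by 0.37 (edgeR adjusted p = 0.0107), FARSB by 0.36 (0.0204), VARS by 0.33 (0.00815), HARS by 0.33 (0.0156), NARS by 0.27 (0.0298) and FARSA by 0.25 (0.0399); FARSA and FARSB encode the subunits of the phenylalanyl enzyme. All but NARS missed the threshold without untreated replicate 2, and NARS and FARSA missed it without untreated replicate 3. The groups of HARS and FARSB overlapped. Leaving out a BGT226 replicate also ended the calls of CARS (without replicate 3), HARS and NARS (without 2 or 3), FARSA (without 1 or 3) and FARSB (without 1 or 2). The highest adjusted p of any such fit was 0.195 for FARSB, 0.191 for FARSA, 0.128 for NARS, 0.111 for HARS, 0.103 for CARS and 0.0523 for VARS.

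QARS, the glutaminyl enzyme at chr3:49095932-49105135, moved the other way. It was at 91.6, 112 and 89.2 CPM in untreated cells and at 137, 138 and 139 with BGT226, with no overlap. Its log2 fold change was 0.50 ± 0.095 (edgeR adjusted p = 0.000515), and it stayed between 0.45 and 0.61 in every alternative fit. Mitochondria make glutaminyl-tRNA by an amidotransferase rather than by a synthetase, so QARS has no mitochondrial partner in the list. The 3 subunit genes of that amidotransferase and MTFMT, the mitochondrial methionyl-tRNA formyltransferase, gave no call with BGT226 (0 of 4).

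LARS, RARS, SARS, KARS and DARS did not pass the test with BGT226. RARS, for arginine, was at 33.7, 36.6 and 34.4 CPM in untreated cells and 34.1, 35.8 and 33.7 with BGT226, so its groups overlapped throughout. Its log2 fold change was -0.02 with a 95% interval from -0.18 to 0.14. The interval for LARS, for leucine, ran from -0.22 to 0.12, which leaves out a fall of the size seen in GARS or MARS. DARS, for aspartate, was at -0.25 (edgeR adjusted p = 0.0777), KARS, for lysine, at -0.18 (0.126) and SARS, for serine, at -0.13 (0.173).

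Among mitochondrial members CARS2 changed with the smallest p in BGT226-treated cells. It was at 57.9, 62.7 and 58.9 CPM in untreated cells and 46.7, 48.9 and 50.2 with BGT226, without overlap, a log2 fold change of -0.30 ± 0.0611 (edgeR adjusted p = 0.001). IARS2 was at 56.8, 46.7 and 55.2 CPM and then at 36.1, 37.2 and 44.8, a change of -0.41 ± 0.103 (0.00481). Both calls held whichever library was left out. YARS2 fell by 0.40 (0.0257), from 10.1, 15.2 and 11.9 CPM to 9.26, 10.1 and 9.09, but its highest treated library nearly touched its lowest untreated one, and the call was lost without untreated replicate 2 or BGT226 replicate 1 or 3 (highest adjusted p 0.229). AARS2 was at 22.1, 22.9 and 21.7 CPM and then at 27, 25.3 and 25, a rise of 0.21 (0.0413) that missed the threshold whichever library was left out (up to 0.139). HARS2 was at 11.5, 13.1 and 12.6 CPM in untreated cells and at 12.7, 12.4 and 12.5 with BGT226, inside the untreated range.

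**Figure D3:**
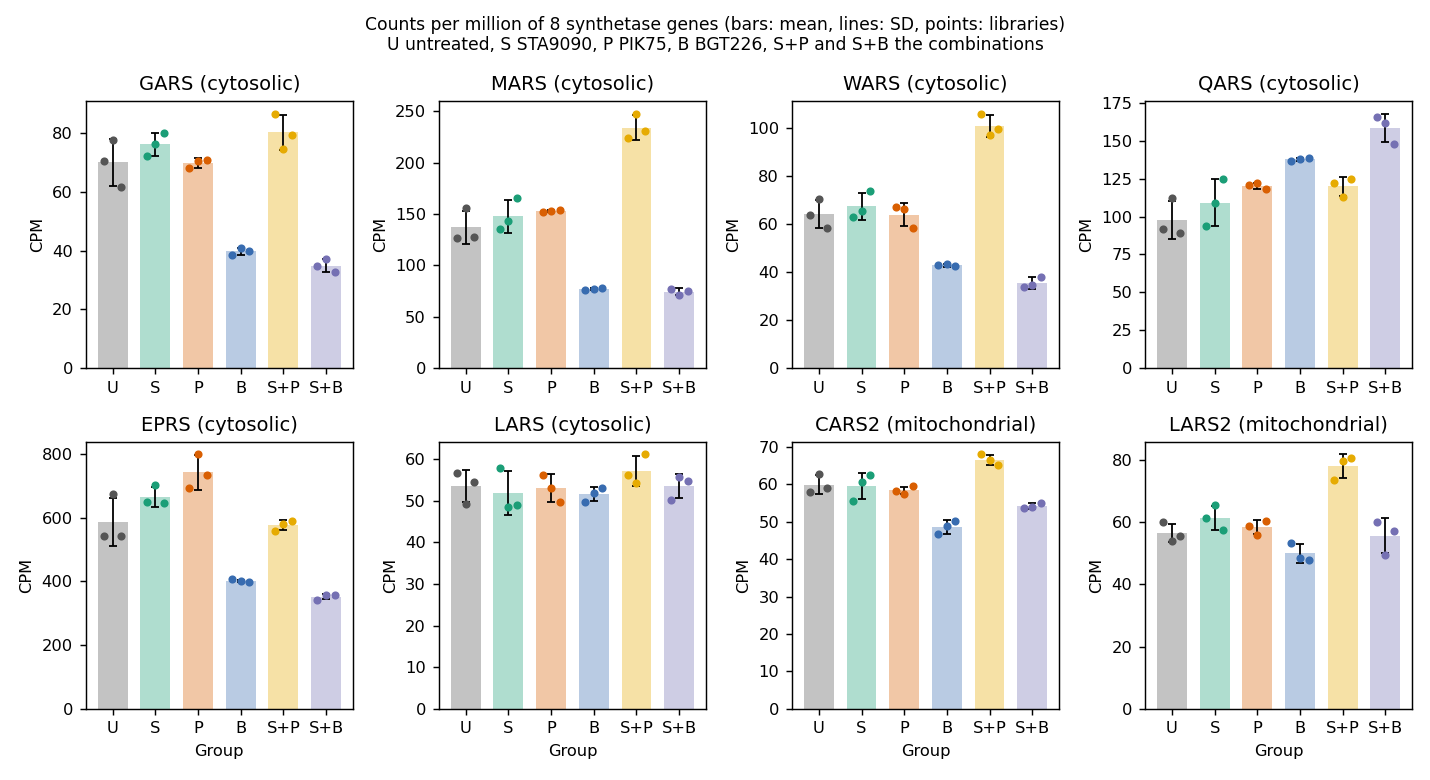
CPM of 8 synthetase genes by group (bars mean, lines SD, points the 3 libraries; U untreated, S STA9090, P PIK75, B BGT226, S+P and S+B the combinations; linear axes from 0). GARS, MARS, WARS and EPRS are lowest in B and S+B, QARS is highest there, and LARS lies between 48.6 and 61.2 CPM in every library.

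With STA9090+BGT226, 15 of 20 cytosolic members were lower than in untreated cells and 1 was higher (edgeR; of all genes 39.8% were called, 20.4% lower and 19.4% higher). The median was -0.44, against 0.03 for all genes. In the mitochondrial class 2 of 16 were lower and 1 was higher, with a median of -0.01; without combination replicate 1 the count was 1. These comparisons and those of the single agents share the same untreated libraries, so they are not independent of each other.

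GARS was at 34.8, 37.1 and 32.9 CPM with STA9090+BGT226, about 0.497 of its untreated level (log2 fold change -1.01 ± 0.0816, edgeR adjusted p = 1.48e-08). WARS was at 33.7, 34.4 and 38.1 CPM against 63.6, 70.4 and 58.4 in untreated cells, a change of -0.86 ± 0.0822 (1.26e-07). AARS was at 84.7, 79.8 and 84.2 CPM against 140, 144 and 131 (-0.74 ± 0.0713, 1.35e-07), and MARS at 77.2, 71 and 75.2 CPM (-0.88 ± 0.0874, 1.89e-07). In all 4 genes the combination's libraries lay below every untreated library. QARS rose to 166, 162 and 148 CPM (0.70 ± 0.095, edgeR adjusted p = 8.74e-06). LARS, at 50.3, 55.8 and 54.8 CPM against 56.8, 49.2 and 54.6, overlapped its untreated values (0.00, 95% interval -0.16 to 0.17).

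KARS and SARS did not pass with BGT226 alone, and neither was called between BGT226 and the combination. Against untreated cells they were lower with the combination, at -0.25 (edgeR adjusted p = 0.0278) and -0.19 (0.0322). The KARS call was lost without untreated replicate 2 or 3 or combination replicate 1 or 2 (up to 0.126), and the SARS call without untreated replicate 2 or combination replicate 1 or 2 (up to 0.171). NARS, at -0.21, did not pass (0.0718). The remaining cytosolic calls held whichever library was left out. Of the mitochondrial members YARS2 was at 9.17, 8.83 and 9.46 CPM (-0.44 ± 0.13, 0.00982), IARS2 at 41.6, 43.7 and 42.6 CPM (-0.31 ± 0.103, 0.0209) and AARS2 at 27.8, 25.1 and 25.5 CPM (0.23 ± 0.0741, 0.0173). Each of these 3 lost its call in a fit without 1 library: YARS2 without untreated replicate 2 (0.114), AARS2 without combination replicate 1 (0.0815), and IARS2 without untreated replicate 1 or 3 or combination replicate 1 or 3 (up to 0.09). RARS2, at 21.2, 20.1 and 21.8 CPM, stayed near its untreated 20.6, 21.1 and 21.1 CPM.

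Adding STA9090 to BGT226 changed little that could be resolved. Compared with BGT226 alone, 1 of 20 cytosolic members was lower and none higher, and 0 of 16 mitochondrial members were called (edgeR; of all genes 2.69% were called, 1.7% lower and 0.988% higher). At an unadjusted p under 0.05 there were 7 and 3, and DESeq2 called 2 and 0. AARS was the called member, at 99.6, 102 and 103 CPM with BGT226 and 84.7, 79.8 and 84.2 with both agents (-0.29 ± 0.0713, edgeR adjusted p = 0.0325), and the call was lost whichever library of either group was left out (up to 0.134). The cytosolic median of this step was -0.08 and the mitochondrial one 0.10, against 0.01 for all genes.

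PIK75 alone gave few calls, all of them higher. Against untreated cells 4 of 20 cytosolic members (20%) and 1 of 16 mitochondrial members (6.25%) were higher by edgeR. Of all genes 18.7% were called, 8.49% higher and 10.2% lower. The share called was thus near that of all genes in the cytosolic class and below it in the mitochondrial class. The medians were 0.01 and -0.02, beside 0.00 for all genes. VARS, for valine, at chr6:31777518-31795953, was at 105, 122 and 106 CPM in untreated cells and 148, 154 and 170 with PIK75. Its groups did not overlap, and the log2 fold change of 0.51 ± 0.0881 (edgeR adjusted p = 0.00037) held whichever library was left out.

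EPRS was at 541, 673 and 544 CPM in untreated cells and 692, 799 and 735 with PIK75 (0.34 ± 0.0916, edgeR adjusted p = 0.0128). QARS was at 121, 122 and 118 CPM, above its untreated 91.6, 112 and 89.2 (0.30 ± 0.0952, 0.0315). RARS was at 40.8, 45.2 and 36.4 CPM, where the lowest library lay inside the untreated range of 33.7 to 36.6 (0.23 ± 0.0748, 0.04). PARS2, the mitochondrial prolyl enzyme, was at 10.3, 13.5 and 14.2 CPM in untreated cells and 14.6, 18.3 and 17.3 with PIK75 (0.41 ± 0.113, 0.0158). None of these 4 calls held in every fit that left out a library. All were lost without untreated replicate 1 or PIK75 replicate 2, EPRS, QARS and RARS also without untreated replicate 3, QARS and RARS without PIK75 replicate 1, and QARS and PARS2 without PIK75 replicate 3. The highest adjusted p was 0.0684 for EPRS, 0.105 for PARS2 and 0.219 for RARS, and that of QARS lay between PARS2 and RARS. The cytosolic count was 1 without untreated replicate 1 or PIK75 replicate 2, 2 without untreated replicate 3 (1 higher and 1 lower) or PIK75 replicate 1, and 6 without untreated replicate 2. The mitochondrial count was 0 without untreated replicate 1 or PIK75 replicate 2 or 3, and 2 without untreated replicate 2.

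IARS and AARS2 had the largest p of their class with PIK75. IARS was at 274, 293 and 273 CPM, inside its untreated 266 to 303 (0.00, 95% interval -0.15 to 0.16), and AARS2 was at 21.9, 21.3 and 23.4 CPM (0.00, -0.16 to 0.16). GARS and YARS, which fell with BGT226, were at -0.01 and -0.04 with PIK75, and neither passed the test.

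STA9090 alone left nearly all members unresolved from untreated cells. TARS was the single call among the 20 cytosolic genes, and none of the 16 mitochondrial genes passed (edgeR; of all genes 2.84% were called, 1.16% higher and 1.68% lower). TARS was at 86, 87.3 and 81.1 CPM in untreated cells and 111, 98.6 and 107 with STA9090 (0.32 ± 0.0747, edgeR adjusted p = 0.0286). Its groups did not overlap, but the call was lost without untreated replicate 1 or 3 or STA9090 replicate 1 or 3 (up to 0.106). The cytosolic count was 0 without untreated replicate 1 or 3 or STA9090 replicate 1. At an unadjusted p under 0.05 there were 3 cytosolic members and 1 mitochondrial one, and DESeq2 called 2 and 0. DARS, at 19.9, 17.9 and 19.7 CPM and then 20.2, 17.7 and 19.2, and WARS2, at 5.37, 5.88 and 7.53 CPM and then 6.41, 6.22 and 6.15, overlapped fully.

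STA9090+PIK75 raised members of both classes. In the cytosolic class 12 of 20 were higher than in untreated cells and none lower, and in the mitochondrial class 7 of 16 were higher and 1 lower (edgeR; of all genes 38.4% were called, 18.3% higher and 20.1% lower). The medians were 0.23 and 0.22, against 0.02 for all genes. The mean log2(CPM + 0.5) of the cytosolic genes was 6.41 in each of the 3 libraries, above the untreated 6.05 to 6.24, and that of the mitochondrial genes was 4.3, 4.4 and 4.38 against 4.11 to 4.23. In the same libraries all 8 adrenocortical markers were lower, with a median log2 fold change of -1.32. COL1A1, the fibroblast marker tested, was lower (-3.50), and CD14, the leukocyte marker tested, was higher (1.16, edgeR adjusted p = 0.0231), at 1 ± 0.251 CPM against 0.439 ± 0.206 in untreated cells (SD, n = 3). The other markers of both lists had too few counts to be tested, so each list rests on 1 gene. CD68, also a leukocyte marker, had a lower mean, 0.282 ± 0.317 CPM against 0.548 ± 0.255 in untreated cells. The part of these markers in the result was not tested.

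MARS was at 224, 248 and 231 CPM with STA9090+PIK75 against 127, 156 and 128 in untreated cells. Its log2 fold change was 0.77 ± 0.086 (edgeR adjusted p = 6.44e-07). WARS, at chr14:100333788-100376805, was at 106, 96.9 and 99.4 CPM against 63.6, 70.4 and 58.4 (0.65 ± 0.0789, 1.98e-06). CARS, at chr11:3000922-3057613, was at 25.3, 26.1 and 24.3 CPM against 14.4, 16.6 and 13.1 (0.77 ± 0.0965, 2.83e-06), and RARS at 51.7, 48.9 and 51.9 CPM against 33.7, 36.6 and 34.4 (0.54 ± 0.0739, 8.72e-06). Every treated library of these 4 genes lay above every untreated one. EPRS, the most abundant member, was at 559, 580 and 590 CPM, within its untreated range of 541 to 673 (-0.02, 95% interval -0.22 to 0.17).

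The other higher cytosolic members were VARS (0.38), KARS (0.36), SARS (0.33), QARS (0.30), YARS (0.28), TARS (0.24), AARS (0.23) and IARS (0.19). The calls of QARS (lost without untreated replicate 1 or 3 or combination replicate 3), TARS and AARS (without untreated replicate 3 or combination replicate 2) and IARS (without any library but untreated replicate 2) depended on single libraries. Their highest edgeR adjusted p values were 0.0827, 0.0669, 0.0668 and 0.158. Without untreated replicate 3 the cytosolic count was 8.

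LARS2, the mitochondrial leucyl enzyme at chr3:45388506-45549421, was at 59.9, 54.1 and 55.7 CPM in untreated cells and 73.6, 79.8 and 80.6 with STA9090+PIK75 (0.46 ± 0.0771, edgeR adjusted p = 8.12e-05). Its cytosolic partner LARS, at 56.1, 54.3 and 61.2 CPM, did not pass (0.10, 0.367). PARS2 was at 17, 19.4 and 17.2 CPM (0.50 ± 0.112, 0.0015) and EARS2, for glutamate, at 25.3, 26 and 28.2 CPM against 18.9, 20.3 and 21.8 (0.38 ± 0.0874, 0.00163). All 3 genes had treated libraries above every untreated one and kept their calls whichever library was left out. SARS2 was at 12.6, 16.5 and 12.9 CPM against 10.4, 11 and 8.88 (0.48 ± 0.132, 0.00736), and the call was lost without combination replicate 2 (0.0683). SARS2 shares 1492 exon bases, 46.2% of its own, with the same-strand gene AC011455.2, and 349 with MRPS12 on the other strand, so its counts are uncertain. VARS2, which shares 1858 exon bases (22%) with the same-strand gene GTF2H4 and is uncertain in the same way, was at 14.4, 19 and 16.5 CPM against 14.3, 17.4 and 17 (0.04, 0.853).

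RARS2 (0.32), AARS2 (0.23) and TARS2 (0.21) were the other higher mitochondrial members with STA9090+PIK75, and NARS2 was lower (-0.44, edgeR adjusted p = 0.046). NARS2 is the member with the fewest counts, 36 to 110 per library. All 4 calls depended on single libraries: RARS2 on combination replicate 1 (0.0517 without it), AARS2 on untreated replicate 3 and combination replicate 2 (up to 0.0907), TARS2 on untreated replicates 1 and 3 and combination replicates 2 and 3 (up to 0.16), and NARS2 on untreated replicates 1 and 3 and combination replicates 1 and 3 (up to 0.181). Without combination replicate 2 the mitochondrial count was 5 (4 higher and 1 lower).

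The step from PIK75 to STA9090+PIK75 held much of this rise. Of 20 cytosolic members 7 were higher and 1 was lower, and of 16 mitochondrial members 7 were higher (edgeR; of all genes 25.3% were called, 11.3% higher and 14% lower). WARS rose from 67, 66.1 and 58.5 to 106, 96.9 and 99.4 CPM (0.66 ± 0.079, edgeR adjusted p = 4.38e-06), MARS from 152, 153 and 154 to 224, 248 and 231 CPM (0.62 ± 0.0858, 2.4e-05) and CARS from 16.7, 17.4 and 17.2 to 25.3, 26.1 and 24.3 CPM (0.56 ± 0.0955, 0.00022). In none of these did the groups overlap. EPRS was the lower member, from 692, 799 and 735 to 559, 580 and 590 CPM (-0.36 ± 0.0916, 0.0058). SARS2 gave the largest change, from 6.93, 9.6 and 7.95 to 12.6, 16.5 and 12.9 CPM (0.78 ± 0.136, edgeR adjusted p = 0.000247). The mitochondrial calls of AARS2, CARS2 and TARS2 were each lost in fits that left out a library (up to 0.114, 0.0816 and 0.0736): AARS2 and CARS2 without PIK75 replicate 1 or 2 or combination replicate 2, CARS2 also without combination replicate 1, AARS2 and TARS2 without combination replicate 3, and TARS2 without PIK75 replicate 3.

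The interaction asks whether STA9090 did something else beside PIK75 than it did to untreated cells. On the log2 scale it was positive for 5 cytosolic members and negative for 1, and positive for 2 mitochondrial members (edgeR; of all genes 9.27% were called, 3.54% positive and 5.73% negative). WARS gave 0.59 ± 0.112 (edgeR adjusted p = 0.00242), CARS 0.59 ± 0.139 (0.0115), MARS 0.51 ± 0.121 (0.0121), KARS 0.44 ± 0.123 (0.0268) and AARS 0.33 ± 0.0996 (0.0425). EPRS gave -0.55 ± 0.129 (0.0113), with STA9090 at 0.18 in untreated cells and -0.36 beside PIK75. In the mitochondrial class SARS2 gave 0.76 ± 0.192 (0.0159) and AARS2 0.43 ± 0.107 (0.0147). The calls of KARS (lost without untreated replicate 2, STA9090 replicate 1, PIK75 replicate 3 or combination replicate 1; up to 0.0732), AARS (up to 0.115) and SARS2 (without combination replicate 2; 0.0519) depended on single libraries. AARS was lost without untreated replicate 1 or 2, STA9090 replicate 2, PIK75 replicate 1 or 2 or combination replicate 1 or 2, and without combination replicate 2 the mitochondrial count was 1.

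**Figure D4:**
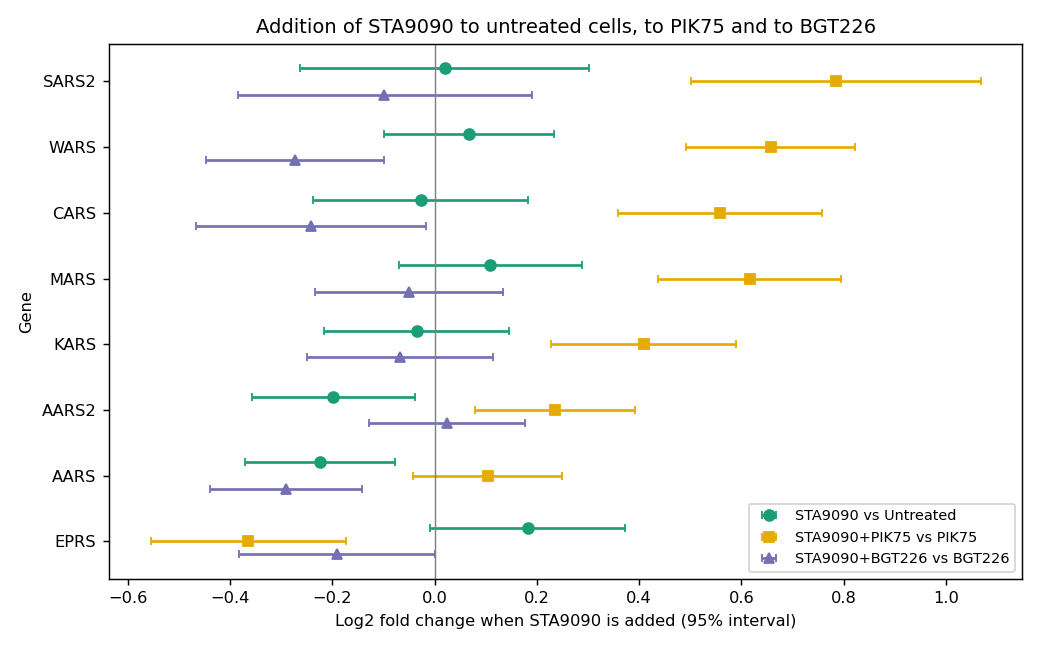
Log2 fold change (points, with 95% intervals) when STA9090 was added to untreated cells, to PIK75 and to BGT226, for the 8 genes with a significant interaction of STA9090 with PIK75. For SARS2, WARS, CARS, MARS, KARS, AARS2 and AARS the point of the step beside PIK75 lies to the right of the others. For EPRS it lies to the left of the step in untreated cells.

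No member passed for the interaction of STA9090 with BGT226 by edgeR, where 0.00633% of all genes did, all positive. At an unadjusted p under 0.05 there were 5 cytosolic and 3 mitochondrial members, and DESeq2 called EPRS and TARS, both negative. The cytosolic median was -0.16 and the mitochondrial one 0.07, against 0.00 for all genes.

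BGT226 and PIK75 were also compared directly, at the same stated dose and time. With BGT226 14 of 20 cytosolic members were lower than with PIK75 and none higher, and 6 of 16 mitochondrial members were lower and 1 higher (edgeR; of all genes 32% were called, 16.5% lower and 15.5% higher). The medians were -0.45 and -0.18, against 0.00 for all genes. MARS differed by -0.99 ± 0.0875 (edgeR adjusted p = 4.81e-08), EPRS by -0.89 ± 0.0922 (4.28e-07), VARS by -0.84 ± 0.0888 (5.47e-07) and GARS by -0.81 ± 0.0811 (2.52e-07). QARS was at 0.20 with a 95% interval from 0.00 to 0.40 and did not pass (0.116). VARS2 (-0.56) and MARS2 (-0.53) led the mitochondrial members, and both had been above their untreated libraries with PIK75 without passing that test. The calls of DARS, NARS, RARS, FARSA, AARS2, IARS2, LARS2 and PARS2 were each lost in a fit without 1 library, and the mitochondrial count was 4 without PIK75 replicate 1 or BGT226 replicate 2 or 3.

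Between the combinations the contrast was larger. With STA9090+BGT226 17 of 20 cytosolic members were lower than with STA9090+PIK75 and 1 was higher, and 7 of 16 mitochondrial members were lower (edgeR; of all genes 43.3% were called, 20.9% lower and 22.4% higher). MARS was at 77.2, 71 and 75.2 CPM against 224, 248 and 231, a fold of 0.318 (log2 -1.65 ± 0.0883, edgeR adjusted p = 1.96e-11). WARS differed by -1.51 ± 0.0817 (2.08e-11), CARS by -1.38 ± 0.101 (1.42e-09) and GARS by -1.20 ± 0.0816 (5.33e-10). QARS was higher (0.40 ± 0.0945, 0.00175), and LARS and DARS did not pass. NARS, MARS2, PARS2 and TARS2 were each lost in a fit without 1 library. This contrast and that of the single agents share no library. Of the 14 cytosolic members lower with the single agents and 17 with the combinations, 13 were in both (92.9% and 76.5%). Of all 20 cytosolic members 70% were lower in the first and 85% in the second. Much of this overlap therefore follows from those shares. Of all genes tested 2603 were lower in the first, 3306 in the second and 1710 in both (65.7% and 51.7%). In the mitochondrial class 4 were in both, of 6 and 7 (66.7% and 57.1%), near the shares over all genes.

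Set beside the mitochondrial gene for the same amino acid, the cytosolic gene had the lower log2 fold change in 14 of 17 pairs with BGT226, with a median difference of -0.20. The same held in 14 of 17 with STA9090+BGT226 (-0.48), in 8 of 17 with STA9090+PIK75 (0.03), in 6 with PIK75 (0.12) and in 5 with STA9090 (0.04). EPRS and FARS2 each enter 2 pairs, and the treatments share untreated libraries, so these counts are a description. The exceptions with BGT226 were the leucine, asparagine and serine pairs, by 0.13, 0.08 and 0.01. The tryptophan pair showed the largest gap with BGT226, WARS at -0.58 and WARS2 at 0.24 (edgeR adjusted p = 0.285 for WARS2). WARS2 was at 5.37, 5.88 and 7.53 CPM in untreated cells, 8.57, 6.54 and 7.19 with BGT226, 8.48, 7.43 and 8.21 with STA9090+PIK75, and 9.89, 7.55 and 6.32 with STA9090+BGT226, and it passed no test in any comparison.

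The histidine pair is transcribed head to head, HARS at chr5:140673904-140691862 on the minus strand and HARS2 at chr5:140691426-140699318 on the plus strand, with 437 shared exon bases (5.56% of HARS and 11.7% of HARS2). HARS was at 42.4, 47.7 and 36.2 CPM in untreated cells, 37.1, 31.3 and 32.9 with BGT226 and 32.1, 30.6 and 31.5 with STA9090+BGT226. HARS2 was at 11.5, 13.1 and 12.6 CPM, then 12.7, 12.4 and 12.5, and 13.6, 13.3 and 13.3. HARS was lower with the combination (-0.43 ± 0.0975, edgeR adjusted p = 0.00166) with no overlap, while HARS2 had a 95% interval from -0.10 to 0.32. The difference between the partners' changes was not tested.

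**Figure D5:**
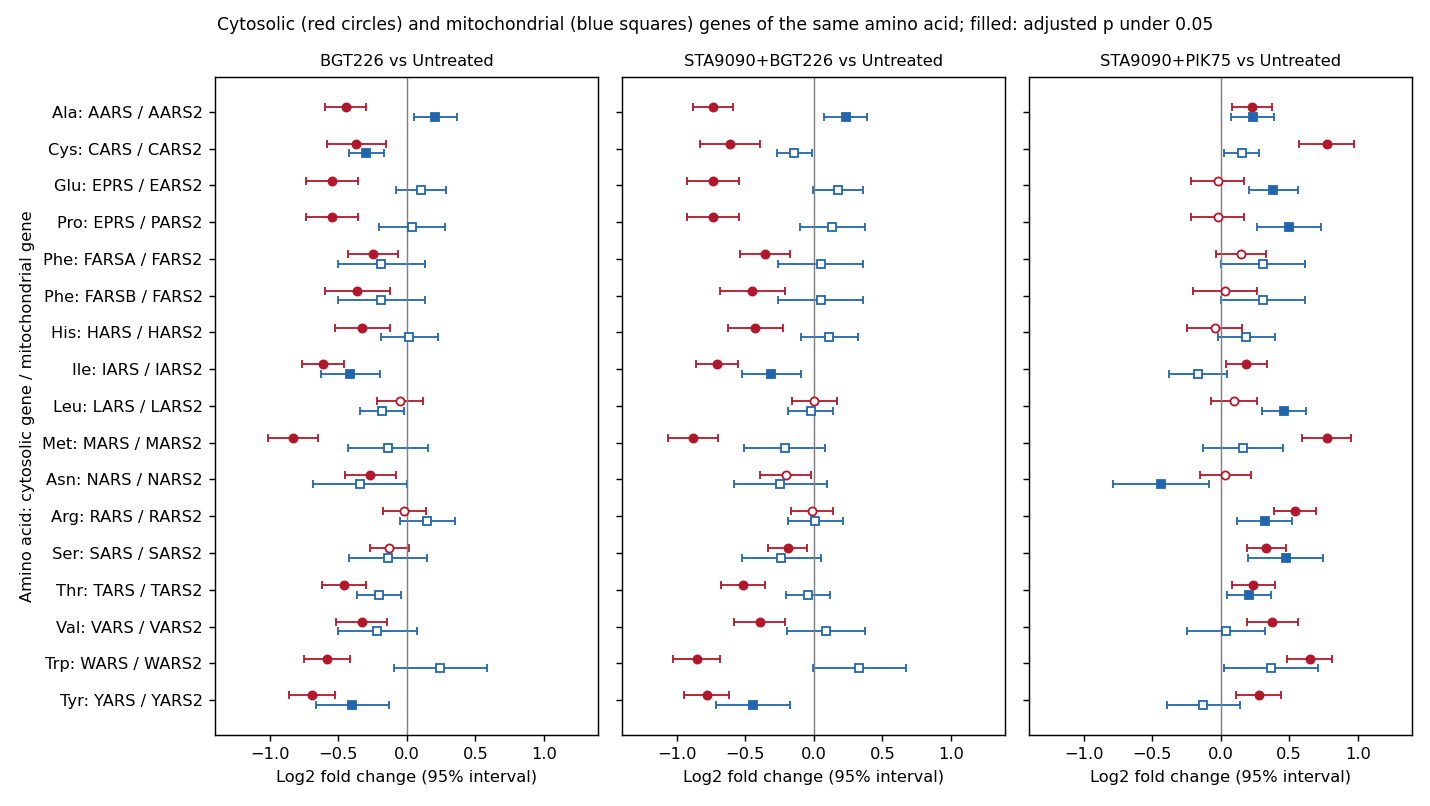
Log2 fold change against untreated cells with 95% intervals for cytosolic (red circles) and mitochondrial (blue squares) genes of the same amino acid, with BGT226, STA9090+BGT226 and STA9090+PIK75; filled symbols passed the test. Red lies left of blue in 14 of 17 pairs in the first and second panels and in 8 of 17 in the last.

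The cytosolic list was also divided by background knowledge, and its counts stand beside 15.7% of all genes lower with BGT226, 20.4% lower with STA9090+BGT226 and 18.3% higher with STA9090+PIK75. Of 12 members usually described as ATF4 targets, 10 were lower with BGT226 (median -0.50), and LARS and SARS were the remainder. Of the other 8, 4 were lower and 1 was higher (median -0.25). With the motif shown above, all 5 cytosolic genes were lower with BGT226 (median -0.61). Of 11 without it 7 were lower and 1 higher (-0.33), and of 4 with no promoter matched 2 were lower. The motif was in 5 of 10 matched promoters of the described ATF4 targets and 0 of 6 of the others. All genes with it thus belong to the ATF4 list, and the motif division is not separate from that one. With STA9090+BGT226 4 of 5 genes with the motif were lower (median -0.74), and 9 of 11 without it were lower and 1 higher (-0.43). With STA9090+PIK75 the order was not the same: 3 of 5 genes with the motif were higher (median 0.19) and 7 of 11 without it (0.30). Among members of the multi-synthetase complex 3 of 8 were lower with BGT226 and 1 was higher (median -0.22), and outside it 11 of 12 were lower (-0.37). By catalytic fold, 6 of 9 class I members were lower with BGT226 and 7 of 10 class II members; with STA9090+PIK75 8 of 9 and 4 of 10 were higher (medians 0.38 and 0.17). EPRS holds both folds and was left out of that division. These divisions hold few genes, and no difference between them was tested.

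Genes that work beside the synthetases gave the following. Of the scaffold genes AIMP2 was lower with BGT226, at 16.2 ± 1.15 CPM against 22.9 ± 2.4 (SD, n = 3; log2 fold change -0.49 ± 0.115, edgeR adjusted p = 0.00305), and with STA9090+BGT226 (-0.63 ± 0.116, 0.000244). AIMP1 and EEF1E1 passed in no comparison with untreated cells. Of 21 tested ATF4-related genes outside the synthetases, 16 were lower and 2 higher with BGT226 (median -0.75), 17 and 2 with STA9090+BGT226, and 3 lower and 8 higher with STA9090+PIK75. Of all genes 15.7% were lower and 12.8% higher with BGT226, 20.4% and 19.4% with STA9090+BGT226, and 20.1% and 18.3% with STA9090+PIK75. ASNS, asparagine synthetase, was at 28.9 ± 4.52 CPM in untreated cells, 10 ± 0.655 with BGT226, 62.2 ± 0.69 with STA9090+PIK75 and 9.56 ± 2.29 with STA9090+BGT226. Its log2 fold changes were -1.53 (1.02e-07), 1.1 (4.6e-07) and -1.61 (3.06e-08). PSAT1, of serine synthesis, gave -1.24, 0.57 and -1.31, all called. CHAC1, a glutathione-degrading enzyme, and PHGDH, of serine synthesis, fell by 2.11 and 1.03 with BGT226 (edgeR adjusted p = 6.46e-08 and 8.03e-07). The ATF4 transcript itself went up in all 3 groups, from 79.8 ± 2.43 CPM to 113 ± 4.53, 100 ± 4.65 and 105 ± 4.22 (edgeR adjusted p = 8.81e-06, 0.000363 and 6.19e-05). ATF4 is controlled largely at translation, and protein was not measured here.

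Other factors of tRNA and mitochondrial translation were counted with BGT226, where 15.7% of all genes were lower and 12.8% higher. Of 12 genes of mitochondrial tRNA maturation 3 were lower, CDK5RAP1 (-0.39), ELAC2 (-0.44) and HSD17B10 (-0.45). Of 9 mitochondrial translation factors 3 were lower, GFM1 (-0.37), TSFM (-0.25) and TUFM (-0.21), and MRRF, the ribosome recycling factor, was higher (0.66, edgeR adjusted p = 1.81e-06). Of 18 tested genes of RNA polymerase III and its factors, 2 were higher and 2 lower, 11.1% each. Of 5 tested editing and deacylation genes DTD1 was lower (-0.40) and PTRH2 higher (0.47). With STA9090+PIK75, AARSD1, which encodes an alanyl-tRNA editing protein, was at 14.2 ± 2.15 CPM against 6.6 ± 0.393 in untreated cells (1.1 ± 0.164, edgeR adjusted p = 2.47e-05), and QRSL1, a subunit of the mitochondrial amidotransferase, was higher by 0.59 (0.000297).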

How the data were processed

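RNA from 18 cultures of NCI-H295R cells was sequenced as stranded, paired-end total RNA libraries depleted of ribosomal RNA, per the labels' protocols. The deposited values are RSEM expected counts per gene, not normalized, which the authors made from reads aligned to hg38 with STAR 2.7.0f and counted with RSEM 1.3.1, after bcl2fastq 2.20 and cutadapt 1.18, per the submitters' processing notes. The annotation release and the use of strand in counting are not named there. Both affect genes that share exons.

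Expected counts were rounded, which changed no library total by more than 0.000381%. Genes were kept by filterByExpr (minimum count 10, minimum total 15), scaled by TMM, and tested with edgeR 4.0.16 (R 4.3.3, limma 3.58.1) by the quasi-likelihood F test in 1 fit of all 18 libraries, for 11 comparisons. P-values were adjusted by Benjamini-Hochberg over the 15787 genes kept, with a threshold of 0.05. Standard errors were taken from each fold change (log2) and its F statistic, and intervals are at 95%. The common biological coefficient of variation was 10.58%. Class means use log2(CPM + 0.5). Overlap between groups compares the replicates' CPM. The labels call the replicates biological and say no more, so p-values measure the spread between these libraries. Library totals and replicate spread set the precision.

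Alternatives were DESeq2 1.42.0, its size factors in edgeR, no count filter, a stricter filter (at least 1 CPM in 3 libraries), the compared groups alone, a replicate block, a table without its 50 most counted genes, and fits that omit single libraries. On simulated counts for BGT226 against untreated cells (15115 genes) the fit was checked first: 34.74% of changes of 0.5 and 73.74% of changes of 1 on the log2 scale were recovered, with 5 false calls in that simulation.

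The members and the gene lists were chosen with earlier results of these data known. Members described in full were, per comparison with untreated cells and class, up to 4 called genes of smallest adjusted p and the gene of largest p, and the histidine and tryptophan pairs. Other lists give up to 4 genes of smallest adjusted p, with ATF4, ASNS and the scaffold genes. Any other gene with its values, such as QARS with BGT226 or DDIT3, was chosen after its values were seen. Gene positions and exon overlaps are from GENCODE 29 (GRCh38), promoters from RefSeq (GRCh38.p14).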

Additional observations from a re-analysis of the deposited data

Results flagged for a closer look

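STA9090 changed 8 members differently beside PIK75 than in untreated cells, by edgeR's test of the interaction itself, where 9.27% of all genes passed. On the log2 scale the interaction was 0.59 for WARS (adjusted p = 0.00242), 0.59 for CARS (0.0115), 0.51 for MARS (0.0121), 0.44 for KARS (0.0268) and 0.33 for AARS (0.0425). It was -0.55 for EPRS (0.0113), 0.76 for SARS2 (0.0159) and 0.43 for AARS2 (0.0147). SARS2 shares 46.2% of its exon bases with AC011455.2 on the same strand. Of the 8, 3 (CARS, MARS and WARS) held under all alternatives run. KARS, AARS and SARS2 were lost in fits without single libraries (adjusted p up to 0.0732, 0.115 and 0.0519). EPRS, KARS and AARS were lost with the compared groups alone, AARS2 and AARS with no count filter, and AARS also with the replicate block.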

How the results depend on the processing

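No significant member difference reversed direction under any of these alternatives, and of 134 significant member differences 86 held under all of them. Leaving out a library ended 46, no count filter 19, fitting the compared groups alone 18, DESeq2 7, the replicate block 3, leaving out the 50 most counted genes 2, and DESeq2's size factors and the stricter filter 0 each. Without the count filter the lost calls were RARS (PIK75), AARS2 (BGT226), AARS, IARS, TARS, AARS2, NARS2 and TARS2 (STA9090+PIK75), SARS and AARS2 (STA9090+BGT226), AARS2, CARS2 and TARS2 (STA9090 added to PIK75), AARS (STA9090 added to BGT226), RARS, AARS2 and LARS2 (BGT226 against PIK75), and AARS and AARS2 (interaction with PIK75). Counts of called members that moved by over 1.5 times outside the fits without 1 library were as follows. With DESeq2 they were 2 cytosolic for STA9090, 5 mitochondrial for STA9090+PIK75 (each against untreated cells), 2 cytosolic for STA9090 added to BGT226 and 2 cytosolic for the interaction of STA9090 with BGT226. With the compared groups alone they were 0 cytosolic for STA9090, 1 cytosolic and 0 mitochondrial for PIK75, 3 cytosolic for STA9090 added to BGT226 and 3 cytosolic for the interaction of STA9090 with PIK75. With no count filter they were 3 mitochondrial for PIK75, 5 mitochondrial for STA9090+PIK75, 4 mitochondrial for STA9090 added to PIK75, 0 cytosolic for STA9090 added to BGT226 and 1 mitochondrial for the interaction with PIK75. PIK75 gave 2 mitochondrial calls with DESeq2's size factors and 2 with the stricter filter. Leaving out each library in turn gave 0 to 1 cytosolic calls for STA9090, 1 to 6 cytosolic and 0 to 2 mitochondrial for PIK75, 10 to 15 and 2 to 4 for BGT226, 8 to 13 and 5 to 9 for STA9090+PIK75, 14 to 16 and 1 to 4 for STA9090+BGT226, 8 to 9 and 5 to 7 for STA9090 added to PIK75, 0 to 0 cytosolic for STA9090 added to BGT226, 11 to 13 and 4 to 6 for BGT226 against PIK75, 17 to 18 and 5 to 8 between the combinations, and 4 to 7 and 1 to 2 for the interaction with PIK75. The cause of these changes was not tested. With the replicate block the counts were 15 cytosolic and 3 mitochondrial for BGT226 and 11 cytosolic for STA9090+PIK75, and the block moved no count by over 1.5 times. The 3 calls it ended were AARS2 with BGT226, IARS with STA9090+PIK75 and the AARS interaction with PIK75. The labels do not say whether libraries of the same number were set up together. Over 45 same-numbered pairs the correlation of deviations ran from -0.2 to 0.192 (4 above 0.1, 7 below -0.1). Of 18 libraries 4 correlated best with their own number. Deviations from means of 3 libraries cannot settle whether the numbers pair them. Other size factors, filters, the replicate block and leaving out the 50 most counted genes moved the median of all genes by at most 0.024. That largest shift came without a count filter, and DESeq2's size factors gave 0.017. These scalings themselves hold most genes near no change, so a stable median says little about the choice of scaling. Members with few counts, such as NARS2 (36 to 110 per library), are limited by depth.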
